A study of Canis lupus familiaris with 2 samples.

Results

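Potassium channel genes were taken as the rows whose gene symbol begins with KCN, which gave 89 of the 23510 features listed in both files. MDCK cells are an established dog kidney epithelial line that grows as a columnar sheet on a semipermeable membrane. They were cultured to day 3 in medium 2 cm high, which the labels call no pressure, or 50 cm high, the height setting the static water pressure on the cells. No gene was altered and no drug was named for either culture. RNA was sequenced from 1 culture at each height, so no value below has replicates and no difference could be set against replicate error. Expression is given as FPKM, a read count scaled to the exon length of the gene and to the size of the library, which allows levels to be compared between genes. Where 2 values of a gene stand together, the first is from 2-cm-high medium and the second from 50-cm-high medium.

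Potassium channels let potassium leave the cell along its gradient, and in kidney epithelium they set the membrane voltage, recycle the potassium brought in by the sodium pump and take part in the control of cell volume. Pore-forming subunits fall into families with different gates. Two-pore-domain channels (KCNK) carry a steady leak, inward rectifiers (KCNJ) pass current best near the resting voltage, voltage-gated channels (KCNA to KCND, KCNH and KCNQ) open on depolarisation, and calcium-activated channels (KCNN and KCNMA) open when cell calcium rises. Silent subunits (KCNF, KCNG, KCNS and KCNV) act only together with a partner pore subunit. Accessory subunits (KCNAB, KCNE, KCNIP and KCNMB) form no pore and adjust the gating or surface delivery of particular pore subunits.

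The labelled cell type was checked on marker genes. Of 9 kidney epithelium markers in the files, 8 were above 1 FPKM in both cultures, with summed levels of 3672 FPKM at 2 cm and 3484 FPKM at 50 cm. The exception was CDH16, a cadherin of kidney tubules, at 1.96 and 0.676 FPKM. Most of the sum came from the keratin genes KRT8 (1641 and 1561 FPKM) and KRT18 (1384 and 1306 FPKM), so it says little of the other markers. PAX8 was at 65.1 and 57.6 FPKM and PAX2 at 28.3 and 27.9 FPKM. None of the 14 neuron, fibroblast and endothelium markers in the files exceeded 1 FPKM in either culture. Of the muscle and leukocyte markers, TNNT2 (1.77 and 1.96 FPKM) and CD14 (4.82 and 3.77 FPKM) were above 1 FPKM, whereas MYH6, ACTN2, MYL2, PTPRC and CD3E were listed at 0. The steps among very low values showed that 1 read added 9.77% more to FPKM at 50 cm than at 2 cm, and the number of reads in each library is unknown.

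Most potassium channel genes were listed at or near 0, and a few epithelial leak and calcium-activated channels carried most of the signal. Of the 89 genes, 10 (11.2%) were above 1 FPKM in both cultures, compared with 47.0% of all features. They included KCNN4, KCNK1, KCNK5, KCNK6, KCNAB2, KCNAB1, KCNQ1, KCNH3 and KCNJ12. A further 5 genes, KCNMB4, KCNJ16, KCNJ9, KCNIP2 and KCNE2, were above 1 FPKM in one culture only. Nearest to the minimum were KCNH3, at 1.18 FPKM in its lower culture, on the inside and KCNJ9, at 0.978 FPKM, on the outside. The other 74 lay at or below 1 FPKM in both cultures, and 49 of these (55.1% of the 89) were listed at 0 in both, against 32.9% of all features. A listed 0 can be a failed estimate, since ATP5O, a subunit gene of the mitochondrial ATP synthase, was also at 0 in both cultures, so that absence of RNA is not shown. The share above 1 FPKM was 8.0% among 25 voltage-gated calcium channel genes (symbols beginning with CACN), 10.5% among 19 genes with symbols beginning with SCN, most of them sodium channel subunits, whereas 6 of 8 genes of the CLCN chloride channel and transporter family were above it. These 3 families were chosen for comparison after values had been seen, and the differences were not tested.

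**Figure D1:**
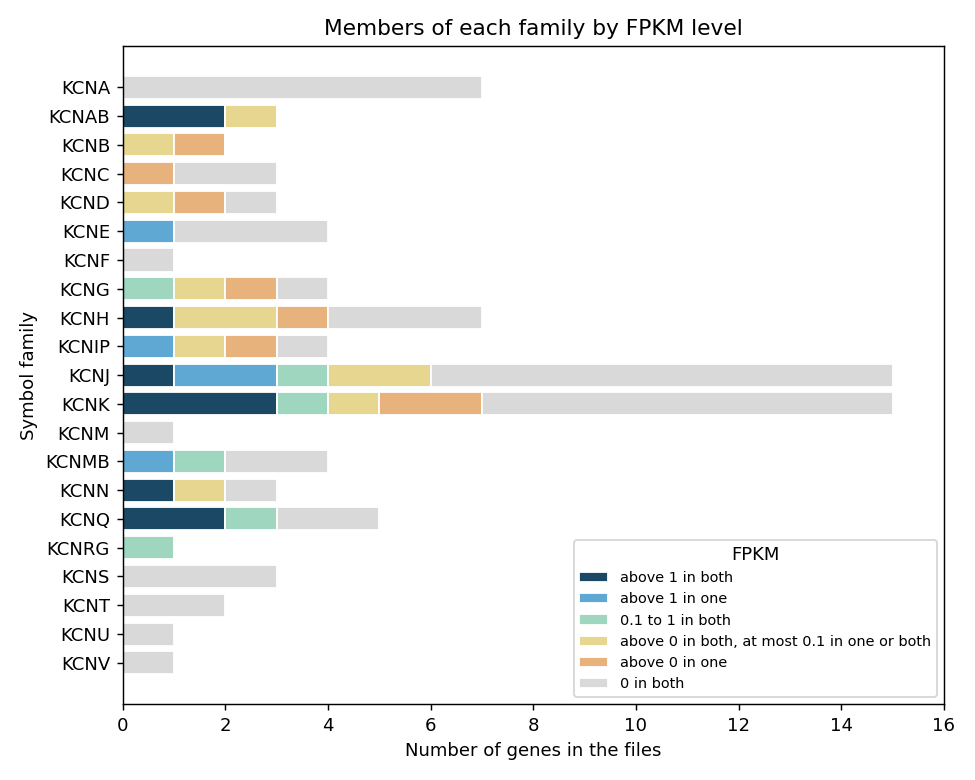
Number of KCN genes in the files for each symbol family (horizontal axis, genes), coloured by FPKM level in the cultures in 2-cm-high and 50-cm-high medium. Genes above 1 FPKM in both cultures are found in KCNAB, KCNH, KCNJ, KCNK, KCNN and KCNQ, and 49 of 89 genes are listed at 0 in both.

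Among families, KCNK had 3 of 15 members above 1 FPKM in both cultures, KCNAB 2 of 3, KCNQ 2 of 5, KCNN 1 of 3, KCNJ 1 of 15 and KCNH 1 of 7. KCNE, KCNIP and KCNMB each had 1 of 4 members above 1 FPKM in one culture only, and KCNJ had 2 such members. All 7 KCNA, 3 KCNS and 2 KCNT genes and KCNF1, KCNMA1, KCNU1 and KCNV2 were listed at 0 in both. KCNA7, KCNH1, KCNN2 and KCNV1 were not analysed here. The summed FPKM of all KCN genes was 82.7 at 2 cm and 84.5 at 50 cm, a ratio of 1.02. KCNN4, KCNK1, KCNK5 and KCNK6 together made up 67.7% of this sum at 2 cm and 69.1% at 50 cm.

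**Figure D2:**
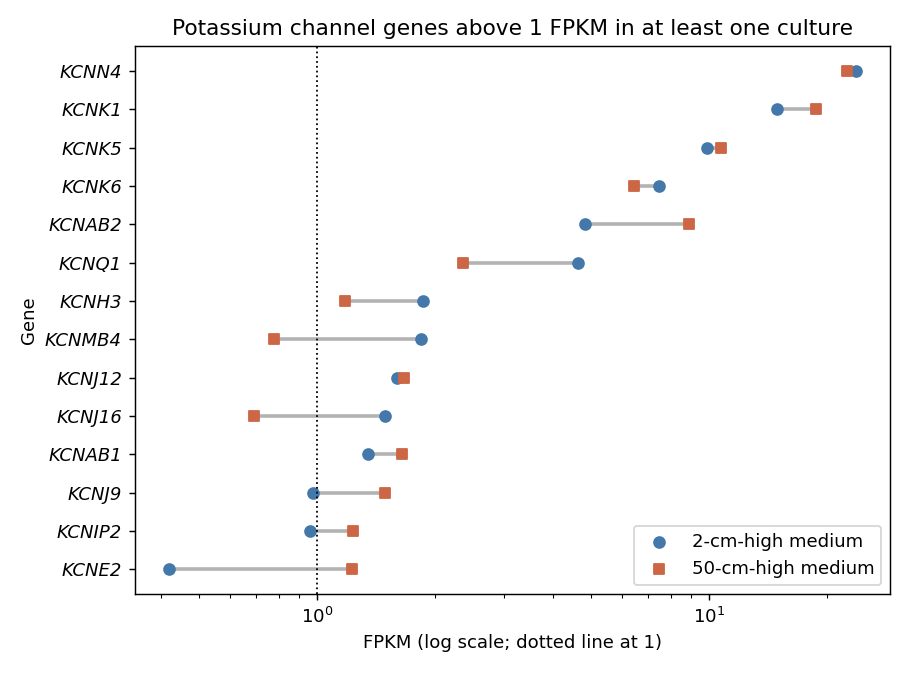
FPKM (horizontal axis, log scale) of 14 KCN genes above 1 FPKM in at least one culture, with a circle for 2-cm-high medium and a square for 50-cm-high medium (1 culture each, no error bars). KCNN4, KCNK1 and KCNK5 lie highest in both cultures, and KCNAB2, KCNQ1, KCNMB4, KCNJ16 and KCNE2 show the widest gaps between the cultures.

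KCNN4, the intermediate-conductance calcium-activated channel of epithelia, red cells and lymphocytes, was the highest member. Its level was 23.7 FPKM at 2 cm and 22.5 FPKM at 50 cm, a ratio of 0.948. It ranked 4145 and 4427 among all features, so that even the leading potassium channel gene was of moderate abundance. The related KCNN3, a small-conductance channel, was at 0.0939 and 0.0547 FPKM, and KCNN1 was listed at 0. The RefSeq annotation of another dog assembly places LOC102153684 across KCNN4. That locus was at 1.504 and 0.275 FPKM, and how the authors' mapping divided overlapping reads is not stated.

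The two-pore-domain family held the next 3 genes at 2 cm, whereas at 50 cm KCNAB2 stood between KCNK5 and KCNK6. KCNK1, a weakly conducting leak channel found in kidney tubules, had 14.9 FPKM at 2 cm and 18.8 FPKM at 50 cm, a ratio of 1.26. KCNK5, an acid-sensitive channel of kidney epithelium linked to volume regulation, had 9.88 and 10.7 FPKM (ratio 1.09). KCNK6, a weak leak channel also found in kidney, had 7.47 and 6.44 FPKM (ratio 0.862). The order KCNK1, KCNK5, KCNK6 was the same in both cultures, and the level of KCNK1 was 2.0 times that of KCNK6 at 2 cm and 2.92 times at 50 cm. Without replicates it cannot be said whether these neighbours in level differ. The family as a whole summed to 32.7 and 36.7 FPKM (ratio 1.12), or 39.6% and 43.4% of all KCN FPKM. Its stretch-gated members were scarce. KCNK2 and KCNK10 were listed at 0 in both cultures, and KCNK4 was at 0.0980 and 0.215 FPKM, a ratio that lies within 0.05% of 2 reads at 50 cm against 1 at 2 cm. KCNK7, a relative that forms no known current, was at 0.358 and 0.327 FPKM. KCNK15 was listed at 0 in 2-cm-high medium and had 0.178 FPKM in 50-cm-high medium, KCNK12 had 0.0229 FPKM in 2-cm-high medium only, and the other 6 members (KCNK3, KCNK9, KCNK13, KCNK16, KCNK17 and KCNK18) were listed at 0.

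Inward rectifiers were low throughout. KCNJ12, a strong inward rectifier, was the single member above 1 FPKM in both cultures, at 1.60 and 1.67 FPKM (ratio 1.05). KCNJ16, a subunit that joins other rectifiers in the basolateral membrane of kidney tubules, had 1.49 FPKM at 2 cm and 0.692 FPKM at 50 cm (ratio 0.465). KCNJ9, a subunit of G-protein-gated channels, had 0.978 and 1.49 FPKM (ratio 1.52). These genes thus moved in different directions, and the family sum was 4.81 and 4.43 FPKM (ratio 0.921). KCNJ2, a strong rectifier and the genomic neighbour of KCNJ16 in the RefSeq annotation, was at 0.237 and 0.0519 FPKM, where its ratio is that of 1 read at 50 cm against 5 at 2 cm. KCNJ14 was at 0.428 and 0.423 FPKM and KCNJ6 at 0.0754 and 0.0965 FPKM. KCNJ1 and KCNJ10, the apical potassium secretion channel and the basolateral partner of KCNJ16 in distal kidney tubules, were listed at 0 in both cultures, as were KCNJ3, KCNJ4, KCNJ5, KCNJ8, KCNJ11, KCNJ13 and KCNJ15.

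Voltage-gated pore subunits had a lower summed level in 50-cm-high medium. KCNQ1, an epithelial and cardiac channel that works with KCNE subunits, had 4.64 FPKM at 2 cm and 2.37 FPKM at 50 cm (ratio 0.510). KCNH3, a channel of the ether-a-go-go family, had 1.86 and 1.18 FPKM (ratio 0.632). KCNQ3 and KCNQ5 were listed at 0. The 27 voltage-gated pore genes summed to 9.68 and 5.87 FPKM (ratio 0.607), or 11.7% and 6.95% of all KCN FPKM. KCNQ1 accounted for most of that gap. Among voltage-gated genes at very low levels were KCNB2 (0.211 and 0.0993 FPKM), KCNH2, which encodes a cardiac repolarising channel (0.0574 and 0.0420 FPKM), KCND3 (0.0335 and 0.0551 FPKM) and KCNH4 (0.0192 and 0.0211 FPKM). KCNC4, KCND1 and KCNH7 had a value at 2 cm only, none above 0.0260 FPKM. Of the silent subunits, KCNG2 was at 0.320 and 0.234 FPKM, KCNG1 at 0.0153 and 0.0672 FPKM, and KCNG3 at 0.0872 FPKM at 2 cm only. At such levels a gene rests on few reads, and the ratios of KCNG2 and KCNH2 were those of 2 reads at 50 cm against 3 at 2 cm. KCNH3 overlaps MCRS1 in the RefSeq annotation, a gene with 46.8 and 49.7 FPKM, so that some reads assigned to KCNH3 may be uncertain.

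Of the 6 subunit classes, accessory subunits had the highest ratio of summed FPKM, with 11.2 and 14.7 FPKM (ratio 1.31). KCNAB2, a cytoplasmic beta subunit related to aldo-keto reductases, had 4.84 FPKM at 2 cm and 8.90 FPKM at 50 cm (ratio 1.84), and it passed KCNK6 in the order of levels. KCNAB1, of the same family, had 1.35 and 1.65 FPKM (ratio 1.22). Together these genes made up most of the class. KCNAB2 gained more FPKM than the class did, so the other accessory genes summed to less in 50-cm-high medium. The higher class sum therefore came from KCNAB2 and was not shared across the class, although KCNAB1, KCNE2 and KCNIP2 were also higher. KCNE2, a single-span partner of KCNQ1 in epithelia, had 0.420 and 1.23 FPKM (ratio 2.93). KCNMB4, a beta subunit of the large-conductance channel, had 1.84 and 0.778 FPKM (ratio 0.422), and KCNMB3 had 0.944 and 0.475 FPKM (ratio 0.503). KCNIP2, a calcium-binding partner of KCND channels, had 0.963 and 1.24 FPKM (ratio 1.29). KCNRG, which binds voltage-gated subunits, had 0.524 and 0.288 FPKM (ratio 0.549). KCNAB3 was at 0.130 and 0.0953 FPKM, KCNIP3 at 0.155 and 0.0566 FPKM, and KCNIP1 at 0.0520 FPKM at 2 cm only.

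Several accessory genes were measured where the pore subunits they are known to bind were near or at 0. KCNAB1 and KCNAB2 bind KCNA subunits, and all 7 KCNA genes were listed at 0 in both cultures. KCNMB3 and KCNMB4 bind the product of KCNMA1, which was listed at 0 in both. For KCNIP2, its partners KCND1 and KCND3 did not exceed 0.0551 FPKM and KCND2 was listed at 0. KCNE2 differed, since its partner KCNQ1 was at 4.64 and 2.37 FPKM. KCNE3, another KCNE subunit known to pair with KCNQ1 in epithelia, was listed at 0 in both, as were KCNE4 and KCNE1L.

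**Figure D3:**
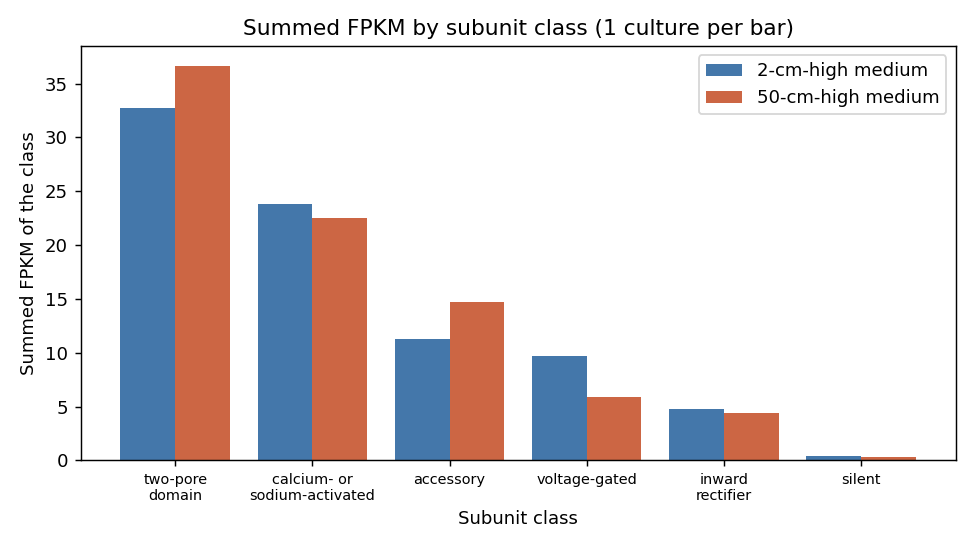
Summed FPKM (vertical axis) of the KCN genes of each subunit class at 2 cm (blue) and 50 cm (orange), 1 culture per bar and no error. Two-pore-domain genes sum to 32.7 and 36.7 FPKM, accessory genes to 11.2 and 14.7 FPKM, and voltage-gated pore genes to 9.68 and 5.87 FPKM.

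The comparison of the cultures asked which of these genes differed with medium height. With a minimum of 1 FPKM at both heights, none of the 10 genes differed by more than 2-fold, where 1.67% of the 11057 features above the minimum did (0.389% upward and 1.28% downward). The count depends on the minimum. At 0.1 FPKM at both heights, 4 of 21 KCN genes passed 2-fold, 1 higher and 3 lower in 50-cm-high medium, against 730 of 13280 features (5.5%, with 1.72% upward and 3.77% downward). The 10 genes above 1 FPKM were evenly split, with 5 higher and 5 lower in 50-cm-high medium. Their median log2 ratio was -0.0068, beside 0.0146 over all features above the minimum. In bulk RNA, fewer cells expressing a gene and less RNA per cell cannot be told apart. KCNQ1 lay just inside the limit, with a ratio of 0.510 against 0.5, and KCNAB2 came next at 1.84. At 1.5-fold, 3 of the 10 genes passed, KCNAB2 upward and KCNQ1 and KCNH3 downward, against 7.19% of all features (2.13% upward and 5.06% downward). These shares are not matched in level, and the difference was not tested. The 10 genes had medians of 4.74 and 4.4 FPKM, whereas all features above the minimum had 16.2 and 16.3 FPKM.

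To describe these ratios, each was set beside the 500 features closest to it in level, whose log2 ratios gave a scaled median absolute deviation. This is a spread between genes and not replicate error. KCNAB2, with a log2 ratio of 0.88, lay 3.1 deviations from 0, and 3.0% of its 500 neighbours in level had a ratio as far from 1. KCNQ1, with a log2 ratio of -0.97, lay -2.38 deviations from 0, and 6.0% of its neighbours were as far. For KCNH3 the log2 ratio was -0.66 and 23.4% of neighbours were as far from 1. KCNK1 lay 1.5 deviations from 0. KCNK6 (49.0%), KCNAB1 (59.4%), KCNK5 (63.0%), KCNN4 (73.6%) and KCNJ12 (91.6%) lay well within the spread of their neighbours.

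**Figure D4:**
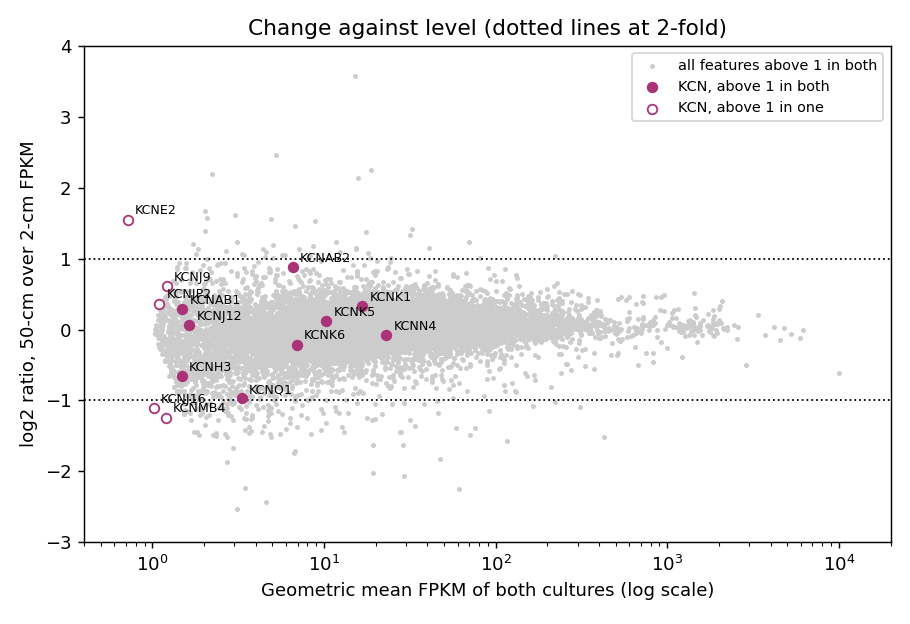
Log2 ratio of 50-cm over 2-cm FPKM (vertical axis) against the geometric mean FPKM of both cultures (horizontal axis, log scale), with all 11057 features above 1 FPKM in both cultures in grey and 14 KCN genes in purple. No filled point lies outside the dotted 2-fold lines, and KCNQ1 and KCNAB2 lie nearest to them.

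Changes past 2-fold appeared among members with one or both values at or below 1 FPKM. Of the 5 genes above 1 FPKM in one culture only, KCNE2 was higher, KCNMB4 and KCNJ16 were lower, and KCNJ9 and KCNIP2 stayed under 2-fold. Crossing the minimum favours such changes, and 37.9% of all features of that kind, with values above 0 in both, passed 2-fold (9.31% upward and 28.6% downward). Among the 11 KCN genes above 0.1 but not above 1 FPKM in both cultures, 4 passed 2-fold, these 3 among them, against 24.5% of 2223 such features (8.37% upward and 16.1% downward). Of those 11 genes 8 were lower in 50-cm-high medium, beside 60.8% of such features. With values above 0 in both cultures accepted, KCNG1 and KCNK4 were also past 2-fold upward and KCNB2, KCNIP3 and KCNJ2 downward, all with at least one value at or below 0.1 FPKM. That made 9 of 32 KCN genes, against 1216 of 14306 features above 0 in both. The difference was not tested, and more of the KCN genes lay at low levels. Each of these added genes had a ratio within 0.05% of a pair of at most 10 reads.

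For low values, the reads behind a ratio could be recovered in part. Where whole reads are counted, the ratio of a gene between the cultures is a ratio of whole numbers times 1.0977, the FPKM of 1 read in the 50-cm-high-medium culture over that in the 2-cm-high-medium culture. Of the 32 KCN genes above 0 in both cultures, 19 had a ratio within 0.001% of such a step with at most 60 reads in each culture. Steps of this kind cover 0.863% of the log ratio axis between 10-fold down and 10-fold up, most densely near equal reads. Among all features, 65.0% with a geometric mean of 0.1 to 1 FPKM lay on one. At 1 to 5 FPKM it was 31.1%, and at 5 to 50 FPKM 5.56%, so a match alone does not give the reads. The pair found is the smallest that gives the ratio, and any multiple of it gives the same one, so the true reads may be more and the counting intervals narrower. The 95% intervals are exact (Clopper-Pearson) and cover counting error between these libraries only.

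KCNE2, with the largest upward ratio among genes above 1 FPKM in at least one culture, was at 8 reads in 50-cm-high medium against 3 in 2-cm-high medium, with an interval for the ratio of 0.703 to 17.1. KCNMB4 was at 5 reads against 13 (interval 0.118 to 1.26). KCNQ1 was at 13 against 28 (0.242 to 1.02), and KCNMB3 at 11 against 24 (0.222 to 1.07). At these smallest counts none of the 4 intervals excluded 1. If the true reads are a multiple of the pair, a narrower interval, as for KCNQ1, could exclude 1. Whether these ratios differ from 1 by more than counting error is therefore not decided. The interval held 1 for 18 of the 19 genes, and with 19 intervals of 95% each, 1 outside is not a result on its own. KCNJ9 was at 25 against 18 (0.799 to 2.97), KCNIP2 at 34 against 29 (0.761 to 2.19) and KCNJ12 at 20 against 21 (0.538 to 2.03). The remaining 11 pairs had at most 10 reads in each culture, among them KCNG1 at 4 against 1 and KCNJ2 at 1 against 5. Of the 15 genes above 1 FPKM in at least one culture, KCNAB2, KCNN4, KCNK1, KCNK5, KCNK6, KCNH3, KCNAB1 and KCNJ16 gave no such pair, and no interval was computed for them.

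**Figure D5:**
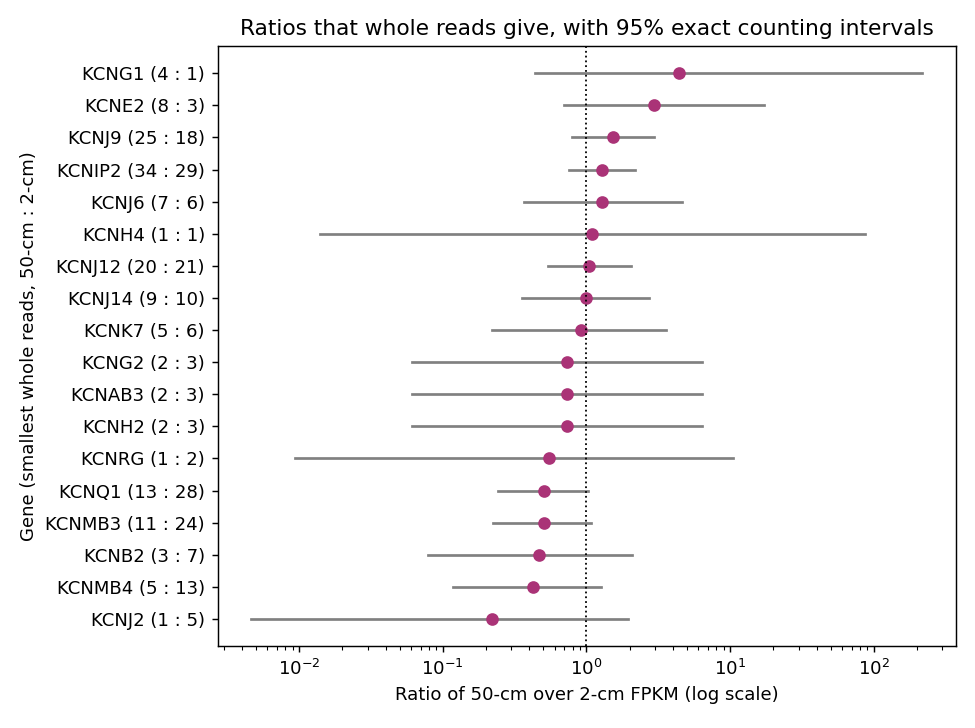
Ratio of 50-cm over 2-cm FPKM (horizontal axis, log scale) for 18 KCN genes whose ratio whole reads give, with the smallest read pair beside each name and 95% exact counting intervals as lines. At these smallest counts the intervals of all 18 genes drawn hold 1, and the true reads may be more.

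The wider machinery of potassium handling was read from a list of 48 genes without a KCN symbol, all of them in the files. Of these, 26 were above 1 FPKM in both cultures and none passed 2-fold (background 1.67%), with 16 higher and 10 lower in 50-cm-high medium and a median log2 ratio of 0.0226. The sodium pump, which brings in the potassium that the channels let out, was far more abundant than any channel gene. ATP1B1, its beta subunit, had 325 and 329 FPKM. Of the potassium-chloride cotransporters, SLC12A7 was the highest with 36.5 and 37.1 FPKM. SLC12A2, the sodium-potassium-chloride cotransporter of the basolateral membrane, had 28.7 and 23.6 FPKM, and its kidney-specific relative SLC12A1 was listed at 0. Of the 10 regulating kinases and ubiquitin ligases above the minimum, SGK1 (77.9 and 79.4 FPKM) and OXSR1 (53.3 and 54.3 FPKM) were the highest, and WNK4, a kinase of distal tubule salt transport, had the lowest ratio at 0.545. Among channel partners, CALM2, which encodes the calcium sensor calmodulin bound by KCNN and KCNQ channels, had 507 and 516 FPKM. The sulfonylurea receptor genes ABCC8 and ABCC9, partners of KCNJ11 and KCNJ8, were listed at 0 together with those pore genes. Of the other cation channels, TMEM175, a lysosomal potassium channel, had 11.4 and 9.90 FPKM, and TMEM38B, a channel of the endoplasmic reticulum, had 6.18 and 7.40 FPKM. HCN4, below 1 FPKM in both cultures and therefore not among the 26, was at 0.352 and 0.0643 FPKM.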

How the data were processed

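RNA from 1 MDCK culture at each medium height was sequenced. The authors made stranded mRNA libraries and mapped single-end reads to the CanFam3.1 dog genome. Per the labels, the tools were TopHat2 2.0.13, Bowtie2 2.2.3, SAMtools 0.1.19 and Cuffnorm 2.2.1, the last giving the deposited FPKM values. Which annotation and library scaling were used is not given in the sources used here. FPKM depends on gene length and on all other genes in the library, low values rest on few reads, and total reads are unknown.

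The 50-cm value was divided by the 2-cm value with no pseudocount. Changed meant above 2 or below 0.5 with FPKM above 1 in both cultures. With 1 culture per group no test was run. Whole-read steps were sought with at most 10 reads and a tolerance of 0.05%, and, in a setting chosen after seeing the data, 60 reads and 0.001%, which gave the read pairs. Named were every KCN gene above 1 FPKM in at least one culture or past 2-fold above 0.1 FPKM in both, and, of the other potassium genes, those past 2-fold and the 2 highest of each group. Some genes that this rule names are not reported here. Further genes were named as family members or partners after their values were seen. Members and lists were chosen with earlier results of these data known. RefSeq's table of assembly UU_Cfam_GSD_1.0, another build, gave names of neighbours for 88 of 89 genes and no coordinates. Alternatives were FPKM minima of 0, 0.1, 0.5 and 5 in both or 1 in at least one, pseudocounts of 0.1 and 1, recentring, quantile normalization, and 1.5- and 3-fold limits. Scripts were tested on simulated data. Python 3.11.15, numpy 2.4.6, pandas 2.3.3, scipy 1.17.1 and matplotlib 3.10.9 were used.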

Additional observations from a re-analysis of the deposited data

How the results depend on the processing

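The number of KCN genes above the minimum was 10 at 1 FPKM in both cultures, and it moved to 32, 21 and 4 at minima of 0, 0.1 and 5 FPKM. None of these 10 genes was past 2-fold. With a minimum of 1 FPKM in at least one culture 3 of 15 were past 2-fold (1 higher and 2 lower). All 3 were above 1 FPKM in one culture only. Of all features of that kind with values above 0 in both, 37.9% passed. With minima in both cultures, 4 of 21 passed at 0.1 FPKM (1 and 3) and 2 of 14 at 0.5 FPKM (both lower). Above 0 in both, 9 of 32 passed (3 and 6). A limit of 1.5-fold gave 3 of 10 (1 and 2). The count over all features, 185 of 11057 (1.67%), became 1216 of 14306 above 0 and 730 of 13280 (5.5%) at 0.1 FPKM. It was 281 and 62 at minima of 0.5 and 5 FPKM and 384 with 1 FPKM in at least one culture. The 384 came from 11057 features above 1 FPKM in both cultures and 479 above it in one only. For these 3 settings no share was computed, so the KCN counts under them do not show more or fewer changes than among all features. With a pseudocount of 1 it was 92, and at 1.5- and 3-fold it was 795 (7.19%) and 20. Minima and limits act by construction on which genes can be counted. Pseudocounts, recentring and quantile normalization left the KCN count past 2-fold at 0, although a pseudocount can only bring a ratio nearer to 1. All 56 recomputed log2 ratios of 14 named genes under these 4 settings kept within their counting interval or the spread of neighbouring features. Those ranges are wide, so keeping within them says little. With a pseudocount of 1 the log2 ratio of KCNE2 went from 1.55 to 0.651 and that of KCNMB4 from -1.24 to -0.677. Both were then under 2-fold. No paired analysis was possible because each group has 1 culture, and no replicate could be left out.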
